A study of Mus musculus with 16 samples.

Results

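Both kinds of control were compared: shControl cells, the reference of the knockdown arm of a study of Tgif1 and Tgif2, and BirA control cells, the reference of its overexpression arm. The members were the 2 arrays titled shControl and the 4 arrays titled BirA control, 6 of 16 arrays in all. They were taken by title, with no measured value used. The comparison asks how far the baseline of the knockdown arm lies from that of the overexpression arm. Every array held total RNA of mouse J1 embryonic stem (ES) cells on an Affymetrix Mouse 430A 2.0 array, which measures each gene with 1 or more probe sets. Per the labels, which name no feeder layer, all cells grew on dishes coated with 0.1% gelatin, in medium with 20% serum and 1000 U/ml of leukemia inhibitory factor (LIF). The genotype label is shControl KD for the shControl arrays and BirA OE for the BirA control arrays. The other arrays were 2 of Tgif1 KD, 4 labelled Tgif1 OE and 4 labelled Tgif2 OE. The labels give no sequence for the control hairpin, no promoter for BirA, no number of clones and no passage. They do not say whether cells labelled Tgif1 OE carry BirA, or whether replicates were separate cultures, so p-values measure the spread between these arrays, which may be technical.

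A control short hairpin RNA is processed by the same enzymes as a gene-specific one but is meant to have no target in the cell. BirA is the biotin ligase of Escherichia coli, used to biotinylate proteins that carry a tag. ES cells in serum and LIF hold the core pluripotency factors Pou5f1, Sox2 and Nanog and vary between a naive state, which depends on LIF and Stat3, and a formative or primed state close to the epiblast, which carries Pou3f1, Cdh2 and Dnmt3b. Tgif1 and Tgif2 are homeodomain repressors that bind Smad proteins. None of these statements is a result of these arrays.

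The Tgif1 signal was lower on Tgif1 KD than on either control and was not raised on the arrays labelled Tgif1 OE. Tgif1, on a log2 intensity scale, was 10.71 and 10.66 on shControl and 10.65, 10.67, 10.70 and 10.74 on BirA control, a difference of -0.01 ± 0.09 (standard error, as after every ± below; adjusted p = 0.978). It was 7.46 and 7.12 on Tgif1 KD and 10.25, 10.14, 10.06 and 10.02 on the arrays labelled Tgif1 OE, which are therefore named by their label; whether its probe sets detect a transgene is not known here. Tgif2 differed between the controls by -0.23 ± 0.08 and did not pass the threshold (adjusted p = 0.0662). Pou5f1, which defines pluripotent cells, was at 13.21 and 13.23 on shControl and 13.14, 13.02, 13.17 and 13.10 on BirA control (near the top of the measured range of 2.19 to 14.79). Arrays of a group formed pairs: replicates 1 and 2 correlated at 0.9981 on shControl and 0.9983 on BirA control, and BirA control replicates 3 and 4 at 0.9983, while the 2 BirA pairs correlated at 0.9944 to 0.9949. The shControl arrays, which make up 1 such pair, correlated with the BirA control arrays at 0.9903 to 0.9922. The labels do not explain the pairs. Several control probe sets moved with the groups. The mean of 3 probe sets for 18S ribosomal RNA was 12.51 and 12.57 on shControl and 12.92 to 13.44 on BirA control. The 5′ minus 3′ signal of the transferrin receptor was -1.42 and -1.67 against -0.63 to -1.01. For Gapdh it was -0.21 and -0.22 against -0.04 to -0.13, and for Actb -0.61 and -0.67 against -0.46 to -0.57. The groups did not overlap in any of these 4 measures, and an exact permutation test of 2 against 4 arrays, two-sided, gave p = 0.133 for each, the smallest value that design allows. The spike-in controls split by array set as well. The mean of the polyA spike-ins, added to the RNA before labelling, was 9.53 and 9.63 on shControl, 9.32 and 9.20 on BirA control replicates 1 and 2 and 8.59 and 8.06 on replicates 3 and 4. The controls did not overlap in this mean either (exact permutation p = 0.133). On the arrays labelled Tgif1 OE it was 9.30 and 9.50 against 7.82 and 8.07, and on those labelled Tgif2 OE 9.34 and 9.81 against 7.93 and 8.65. The hybridization spike-ins overlapped between the controls (exact permutation p = 0.267). The part of RNA quality and labelling in the differences below was not tested.

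The controls differed in expression across the genome, mostly by less than 2-fold. Of 12393 genes, each read from the brightest of its probe sets (by the mean of 16 arrays), 2534 (20.4%) had an adjusted p under 0.05 in limma, 1631 (13.2%) higher and 903 (7.29%) lower on shControl than on BirA control. The median size of those differences was 0.45 log2. Among them 146 genes (1.18%) differed at least 2-fold, 72 higher and 74 lower. Counted over all 20380 probe sets with 1 gene symbol, 4041 (19.8%) passed. Of the probe sets that passed, 56.3% were higher on shControl with the deposited values, 51.6% after quantile normalization and 43.1% with each array centred on its median, and for genes the shares were 64.4%, 61.5% and 51.8%. The median over all genes was 0.05, so a small general excess on shControl depends on the scaling.

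The pairing of arrays mattered more than the scaling. When the pair entered the fit as a random block, at an estimated correlation of 0.552, 1383 probe sets (6.79%) and 889 genes (7.17%) passed, 564 genes higher (4.55%) and 325 lower (2.62%), all of them among the first calls. With each pair averaged to 1 value, which leaves 1 shControl value against 2 for BirA control, 0 probe sets passed. The lowest adjusted p was then 0.0502, and 2992 probe sets had an unadjusted p under 0.05, against 6413 in the first analysis. Without shControl replicate 1 the count of genes was 1282, and without replicate 2 it was 1028. Below, the words with 1 shControl array mark how many members of a list passed when shControl replicate 1 and when replicate 2, in that order, was left out. Every list count is to be read beside the shares of all genes, 13.2% higher and 7.29% lower. With the array pair as a block those shares are 4.55% and 2.62%. Against BirA control replicates 1 and 2 alone and against replicates 3 and 4 alone, 1334 genes passed in both with the same sign. Replicates 3 and 4 differed from replicates 1 and 2 in a like way in the 3 groups with 4 arrays: over 20380 probe sets, which are not independent, that difference on BirA control correlated at 0.528 with that on Tgif1 OE and at 0.561 with that on Tgif2 OE. The shControl arrays carry the numbers 1 and 2. With this array set as a term in the fit, an analysis chosen after seeing the data, 4217 genes and 6673 probe sets passed. Between the 2 BirA pairs 35 genes differed at least 2-fold and the median absolute difference was 0.146. Against the pair of replicates 1 and 2, shControl had 194 genes at least 2-fold apart and a median of 0.184, and against the pair of replicates 3 and 4, 167 genes and 0.158. The groups did not overlap in 5434 genes (43.8%).

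**Figure D1:**
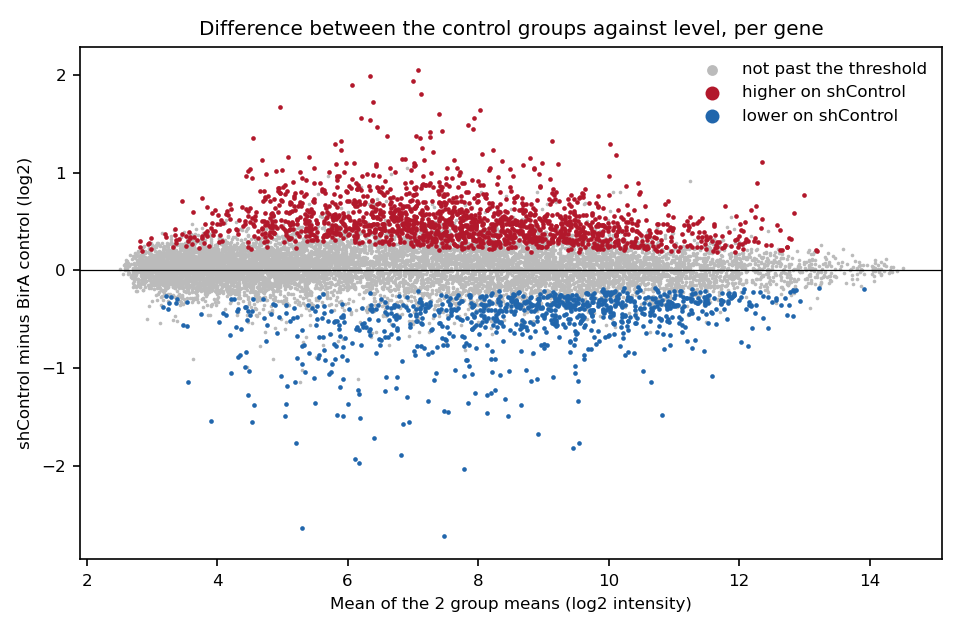
Difference shControl minus BirA control (log2, vertical axis) against the mean of the 2 group means (log2 intensity, horizontal axis) for 12393 genes. Red points are the 1631 genes higher and blue points the 903 genes lower on shControl at an adjusted p under 0.05; grey points did not pass. The largest differences lie at middle levels, from -2.72 for Spink1 to 2.05 for Stra8.

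The genes furthest above BirA control included germ cell, surface receptor and secretory pathway genes. Stra8, a retinoic acid target needed for entry into meiosis, was 8.07 and 8.14 on shControl and 6.21, 5.84, 6.18 and 5.96 on BirA control, a 4.15-fold difference (2.05 ± 0.15 log2, adjusted p = 9.96e-07). Thy1, a surface glycoprotein, was 8.02 and 7.93 against 5.90, 5.85, 6.20 and 6.20 (1.94 ± 0.13, adjusted p = 4.95e-07). Ampd3, an AMP deaminase, was 7.42 and 7.24 against 5.27, 5.15, 5.42 and 5.51 (1.99 ± 0.21, adjusted p = 2.87e-05). In each of these 3 genes the shControl arrays lay together, more than 1 log2 unit above every BirA control array. Pdgfrb, a receptor of platelet-derived growth factor, was 7.07 and 6.96 against 4.72, 4.71, 5.24 and 5.78 (1.90 ± 0.27, adjusted p = 2.64e-04); its BirA control values split by pair, and its other probe set differed by 0.35. Kdelr3, which returns escaped proteins to the endoplasmic reticulum, was 8.82 and 8.88 against 7.42, 7.31, 7.13 and 7.01 (1.64 ± 0.16). Retreg1, a receptor for autophagy of the endoplasmic reticulum, was 8.17 and 8.23 against 6.75, 6.32, 6.61 and 6.70 (1.60 ± 0.10), and its other probe set gave 1.16. Tbc1d8 (1.73 ± 0.14), the amine oxidase Aoc3 (1.67 ± 0.19) and the myosin light chain Myl4 (1.56 ± 0.16) also passed, each with the array pair as a block too. The other probe set of Tbc1d8 gave 0.78 and that of Myl4 0.31. The homeobox gene Crxos (1.81 ± 0.41, adjusted p = 0.00626) did not hold without either shControl array (highest adjusted p = 0.0582), and its other probe set gave 0.44.

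**Figure D2:**
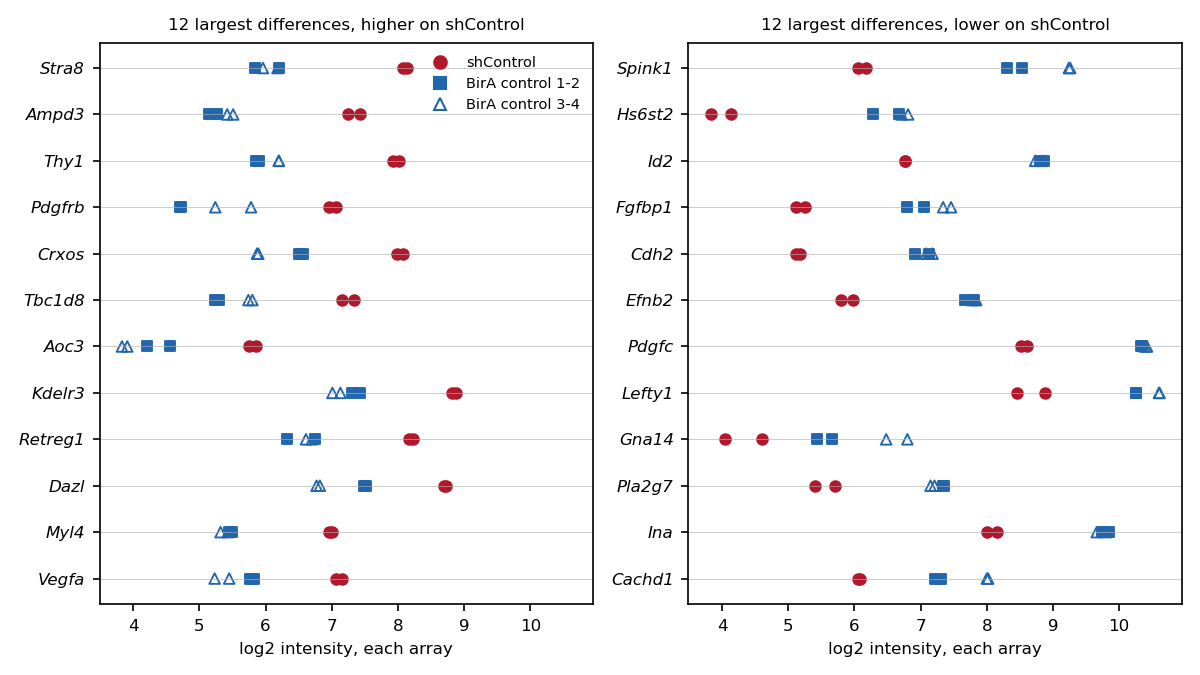
The 12 genes with the largest positive and the 12 with the largest negative difference among called genes whose groups do not overlap, as log2 intensity (horizontal axis) on each array. Red circles are the 2 shControl arrays, filled blue squares BirA control replicates 1 and 2, and open blue triangles replicates 3 and 4. In Spink1, Gna14, Cachd1, Pdgfrb, Dazl and Crxos, among others, the BirA control values split by pair.

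The genes furthest below BirA control included growth factor, inhibitor and adhesion genes. Spink1, a protease inhibitor, was 6.05 and 6.18 on shControl and 8.31, 8.53, 9.26 and 9.24 on BirA control, a 6.58-fold difference (-2.72 ± 0.34, adjusted p = 9.08e-05). Hs6st2, a heparan sulfate sulfotransferase, was 3.83 and 4.13 against 6.68, 6.28, 6.71 and 6.81 (-2.64 ± 0.19), but its 2 other probe sets differed by only -0.08 and -0.05. Id2, an inhibitor of helix-loop-helix factors, was 6.77 and 6.77 against 8.81, 8.86, 8.73 and 8.84 (-2.04 ± 0.31, adjusted p = 4.44e-04), with -1.50 and -0.39 in its other probe sets. Id2 thus had a negative difference in every probe set, while for Hs6st2 the difference rests on 1. Pdgfc, a platelet-derived growth factor, was 8.60 and 8.51 against 10.33, 10.34, 10.39 and 10.42, with little spread in either group (-1.82 ± 0.06, adjusted p = 4.04e-10), and -1.59 in its other probe set. Efnb2, a membrane-bound ephrin, was 5.98 and 5.79 against 7.67, 7.81, 7.84 and 7.78 (-1.89 ± 0.20), with -1.70, -0.42 and -0.25 in its other probe sets. Ina, a neuronal intermediate filament, differed by -1.68 ± 0.09, and its other probe sets gave -1.92 and -1.51. These 3 genes were separated from BirA control by more than 1 log2 unit on every array. Fgfbp1, which releases fibroblast growth factors from the matrix, differed by -1.97 ± 0.34, the lipase Pla2g7 by -1.72 ± 0.13 and Cachd1, an ion channel subunit relative, by -1.57 ± 0.23. The other probe set of Cachd1 gave -0.51. The G protein subunit Gna14 (-1.77 ± 0.40, adjusted p = 0.00568) did not hold without shControl replicate 2 (adjusted p = 0.0993).

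None of Pou5f1, Sox2 and Nanog passed the threshold, and naive genes differed in both directions. The counts in this part stand beside all genes, of which 13.2% were higher and 7.29% lower. Sox2 was 12.60 and 12.57 on shControl and 12.52, 12.59, 12.30 and 12.49 on BirA control (0.11 ± 0.10, adjusted p = 0.492). Nanog was 12.43 and 12.42 against 12.33, 12.30, 11.96 and 11.94 (0.29 ± 0.21, adjusted p = 0.39), with the upper BirA pair close to shControl. Pou5f1 (0.11 ± 0.06), Esrrb (0.14 ± 0.27), Zfp42 (0.07 ± 0.12) and Klf4 (0.55 ± 0.20, adjusted p = 0.0639) did not pass either. Esrrb and Zfp42 change sign against BirA control replicates 1 and 2 alone (-0.03 and -0.05). Of 19 measured core and naive genes 14 had a positive and 5 a negative difference, with a median of 0.12 against 0.05 over all genes. Klf5 (0.92) and Tbx3 (0.80) had the largest positive differences and did not pass. Past the threshold 1 was higher, Tfcp2l1 (0.46 ± 0.12, adjusted p = 0.0163), and 4 were lower (3 and 3 with 1 shControl array). The lower ones included Nr0b1, a nuclear receptor without a DNA-binding domain (-0.80 ± 0.13, adjusted p = 7.06e-04), and Sall4, a zinc finger factor (-0.40 ± 0.06). Only those 2 also passed with the array pair as a block. Of 16 general ES cell genes 0 were higher and 5 lower, 0 and 3 with the array pair as a block. Among the lower ones were Gdf3 and Nodal, both ligands of the transforming growth factor beta family.

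Of 16 measured genes of the formative and primed state 8 were lower on shControl and 0 higher, where 7.29% of all genes were lower. With the array pair as a block 7 were lower (2.62% of all genes), and the median was -0.35 against 0.05 over all genes. With 1 shControl array 6 and 5 passed. Cdh2, the gene of N-cadherin, was 5.18 and 5.11 on shControl and 6.92, 7.12, 7.08 and 7.18 on BirA control (-1.93 ± 0.16, adjusted p = 4.44e-06), and its other probe set gave -1.56. Pou3f1, a POU factor of the epiblast, was 7.78 and 7.66 against 9.06, 9.09, 9.36 and 9.33 (-1.49 ± 0.22, adjusted p = 2.79e-04), with -0.49 in its other probe set. Both genes were low on the shControl arrays, with no overlap, where groups did not overlap in 43.8% of all genes. Dnmt3b, a de novo DNA methyltransferase, was 11.07 and 11.02 against 11.84, 11.93, 11.84 and 11.85 (-0.83 ± 0.08, adjusted p = 8.07e-06). Grhl2, a factor of epithelial identity, was 7.67 and 7.72 against 8.68, 8.90, 8.71 and 8.65 (-1.04 ± 0.11), though its other probe sets gave -0.19, -0.41 and -0.14. Sox3, a close relative of Sox2, was 5.27 and 5.42 against 6.04, 6.21, 6.46 and 6.32 (-0.91 ± 0.12), with -0.07 in its other probe set. Zic2 (-1.34 ± 0.35), Sall2 (-0.79 ± 0.15) and Foxd3 (-0.42 ± 0.11) also passed; all 3 lost the call without shControl replicate 2. Otx2 (0.24), Etv4 (0.53) and Tead2 (0.68) had positive differences and did not pass. Fgf5, the classical marker of the primed epiblast, did not pass either (-0.11 ± 0.14, adjusted p = 0.631). The mean log2 level of the list was 7.73 and 7.68 on shControl and 8.18 to 8.29 on BirA control.

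Cells sense oxygen through prolyl hydroxylases of the Egln family, which mark hypoxia-inducible factor (HIF) for degradation. HIF in turn raises genes for glucose uptake, glycolysis and vessel growth, and the genes Egln1 and Egln3 themselves. In these arrays the list of glycolysis and hypoxia held more genes higher on shControl than any other of the 39 lists. Of 23 measured, 11 were higher and 0 lower, where 13.2% of all genes were higher. With the array pair as a block 8 were higher (4.55% of all genes), and the median was 0.65 against 0.05. With 1 shControl array 10 and 6 passed.

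The start regions of 3 of these genes are shown because their members lie in the sensing, uptake and matrix steps of the response and hold the short core that HIF is known to bind. The letters are RefSeq's (assembly GRCm38.p6), the 250 bases before the annotated start, 5′ to 3′ on the gene's strand, with ACGTG and GCGTG in capitals on either strand. Egln1 lies on the minus strand at chr8:124949255-124949504, Slc2a1 on the plus strand at chr4:119108495-119108744 and P4ha2 on the plus strand at chr11:54100674-54100923.
Egln1: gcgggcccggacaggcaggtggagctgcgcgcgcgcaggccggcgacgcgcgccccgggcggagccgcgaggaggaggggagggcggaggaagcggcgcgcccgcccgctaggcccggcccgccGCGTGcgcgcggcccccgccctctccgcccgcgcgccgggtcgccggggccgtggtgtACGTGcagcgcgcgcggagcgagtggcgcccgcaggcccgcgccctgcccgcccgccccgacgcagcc
Slc2a1: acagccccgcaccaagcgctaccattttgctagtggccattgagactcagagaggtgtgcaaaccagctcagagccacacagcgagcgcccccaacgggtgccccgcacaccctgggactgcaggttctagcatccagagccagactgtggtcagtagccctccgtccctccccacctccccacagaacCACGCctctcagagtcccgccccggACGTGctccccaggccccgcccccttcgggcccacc
P4ha2: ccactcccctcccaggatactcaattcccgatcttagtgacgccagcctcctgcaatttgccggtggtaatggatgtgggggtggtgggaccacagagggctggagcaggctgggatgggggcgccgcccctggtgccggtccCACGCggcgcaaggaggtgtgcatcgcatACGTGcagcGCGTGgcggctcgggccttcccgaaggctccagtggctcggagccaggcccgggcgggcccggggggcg
Such short letters are common. Either motif was found in 38.6% of 32851 windows of this length and for 55.7% of 9887 measured genes with a window, counting a gene with several windows once. It was found for 9 of 9 members that were higher and for 11 of 12 members that did not pass, so the motif did not set the higher members apart. Slc2a3 and Ndrg1 were not matched to a window.

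By role, the sensors and the signal came first. Egln1 was 8.11 and 8.33 on shControl and 7.24, 7.24, 7.15 and 7.22 on BirA control (1.01 ± 0.10, adjusted p = 2.00e-05), with 0.91 in its other probe set. Egln3 was 8.54 and 8.91 against 7.95, 7.93, 7.68 and 7.85 (0.88 ± 0.14, adjusted p = 7.09e-04), with 1.15. Vegfa, the main growth factor of blood vessels, was 7.15 and 7.07 against 5.82, 5.77, 5.23 and 5.45 (1.54 ± 0.20, adjusted p = 1.11e-04), with 0.36 in its other probe set. In all 3 genes both shControl arrays lay above every BirA control array, but groups did not overlap in 2526 of the 2534 genes that passed. The glucose transporter Slc2a1 was 12.70 and 12.76 against 11.94, 11.95, 11.63 and 11.78 (0.90 ± 0.09, adjusted p = 1.22e-05), and its other probe sets gave 1.03 and 1.35. The transporter Slc2a3 was 13.36 and 13.40 against 12.77, 12.72, 12.45 and 12.46 (0.77 ± 0.13). Hk1, a hexokinase, which traps glucose in the cell, was 9.05 and 9.09 against 8.32, 8.17, 8.43 and 8.66 (0.68 ± 0.11), with 0.32 in its other probe set. These 6 genes kept their call with the array pair as a block and without any 1 array. P4ha2, a subunit of the hydroxylase of collagen, differed by 0.85 ± 0.15 and the stress gene Ndrg1 by 0.87 ± 0.16, with adjusted p of 0.0506 and 0.0509 without shControl replicate 2. P4ha1 (0.47 ± 0.12), the peptide hormone gene Adm (0.73 ± 0.17) and the carbonic anhydrase Car9 (0.41 ± 0.11) did not pass with the array pair as a block. The other probe set of P4ha1 gave 0.05. Among enzymes of glycolysis, Ldha (-0.09), Tpi1 (-0.06), Pgam1 (-0.05), Pgk1 (0.19), Aldoa (0.26) and Pkm (0.26) did not pass. The list's mean level was 9.87 and 10.03 on shControl, 9.58 and 9.54 on BirA control replicates 1 and 2, and 9.21 and 9.30 on replicates 3 and 4, so the BirA pairs also stood apart from each other.

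**Figure D3:**
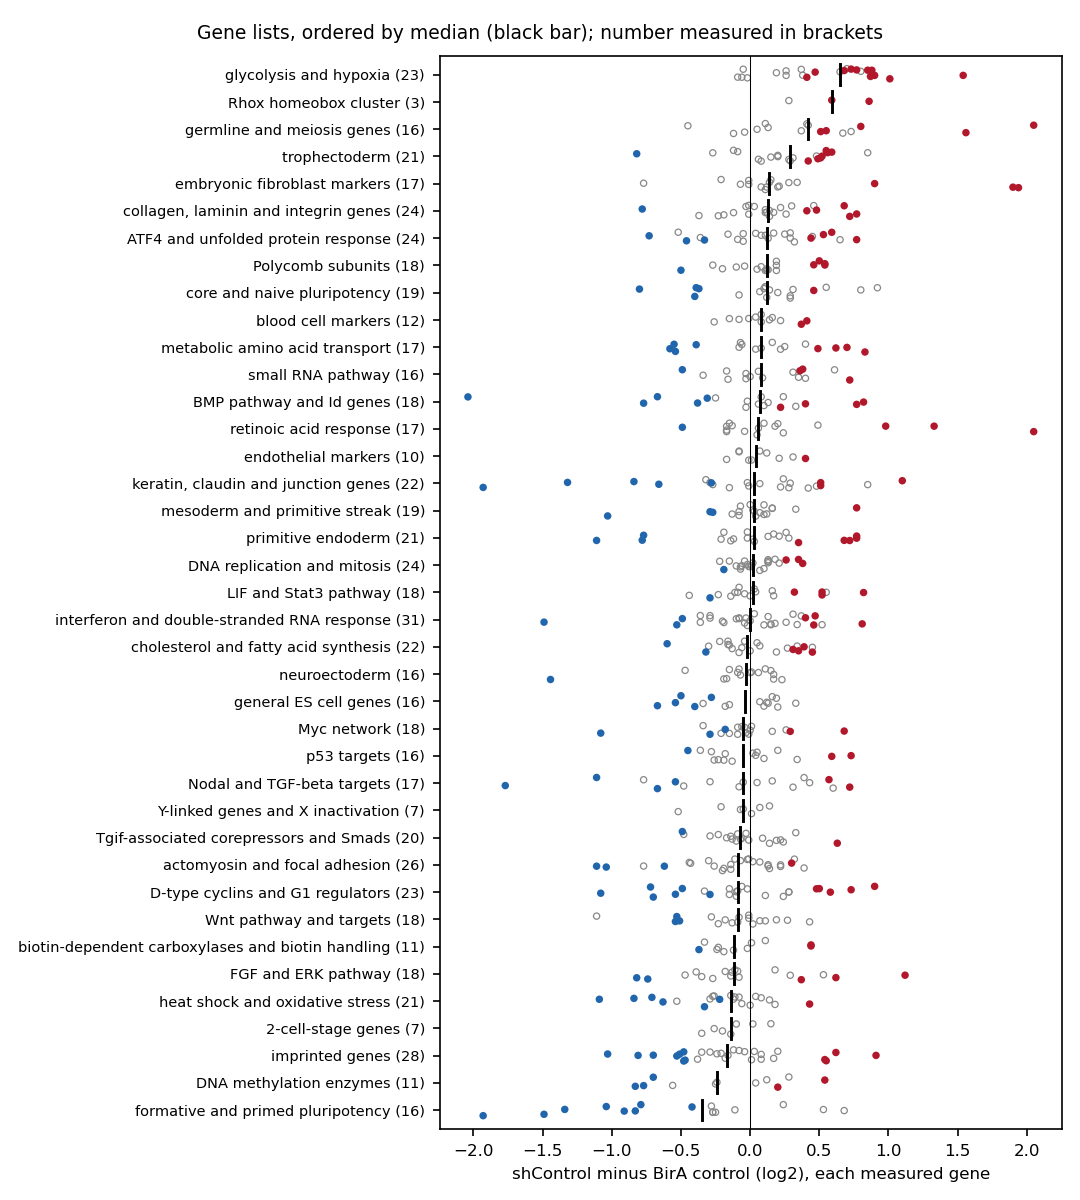
Difference shControl minus BirA control (log2, horizontal axis) of each measured gene in 39 lists, ordered by the list's median (black bar), with the number measured in brackets. Red and blue points passed at an adjusted p under 0.05 and open points did not; vertical scatter within a line has no meaning. Glycolysis and hypoxia lies at the top with a median of 0.65 and formative and primed pluripotency at the bottom with -0.35.

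Of 16 measured germline and meiosis genes 5 were higher on shControl, 0 lower and 11 did not pass, where 13.2% of all genes were higher. With the array pair as a block 3 were higher, and the median was 0.42. With 1 shControl array 3 and 2 passed. Dazl, an RNA-binding protein of germ cells, was 8.70 and 8.72 on shControl and 7.52, 7.48, 6.77 and 6.82 on BirA control (1.56 ± 0.35, adjusted p = 0.00533), with 1.46 in its other probe set; without shControl replicate 2 its adjusted p was 0.0567. Taf7l, a germ cell relative of a general transcription factor subunit, was 5.90 and 5.48 against 4.79, 5.15, 4.95 and 4.68 (0.80 ± 0.14, adjusted p = 0.00105, and 0.0622 with the array pair as a block). Sycp3, Sycp1, Hormad1 and Dmc1, of the meiotic chromosome axis and recombination, lay between 0.37 and 0.67 and did not pass, and Ddx4 (0.13), Tdrd1 (-0.04), Asz1 (-0.12) and Prdm1 (-0.45) did not pass either. Stra8 also belongs to the retinoic acid list, where 3 of 17 were higher and 1 lower (2 and 2 with 1 shControl array). There Crabp1, which binds retinoic acid in the cytoplasm, was 9.77 and 9.83 against 8.68, 8.60, 8.31 and 8.26 (1.33 ± 0.21, adjusted p = 5.49e-04). The receptors Rara (0.06), Rarb (0.20) and Rarg (0.05) and the feedback enzyme Cyp26a1 (-0.04) did not pass.

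Signalling genes moved in both directions within their lists, where 13.2% of all genes were higher and 7.29% lower. Nodal signals through activin receptors and Smad2 and Smad3, and Lefty1 is its secreted inhibitor and target. Of 17 Nodal and TGF-beta genes 4 were lower and 2 higher, all 6 with the array pair as a block (6 and 6 with 1 shControl array). Lefty1 was 8.45 and 8.88 on shControl and 10.26, 10.26, 10.61 and 10.60 on BirA control (-1.77 ± 0.16, adjusted p = 8.50e-06). Nodal itself was 9.76 and 9.85 against 10.35, 10.29, 10.37 and 10.37 (-0.54 ± 0.06), and Gdf3, a related ligand, 9.64 and 9.67 against 10.29, 10.23, 10.40 and 10.38 (-0.67 ± 0.07). The receptor Acvr1b was 9.26 and 9.27 against 8.59, 8.43, 8.55 and 8.62 (0.72 ± 0.07), although its other probe set gave -0.10. The ligands Nodal and Gdf3 and the inhibitor Lefty1 were thus lower and the receptor's main probe set higher. Smad7, the other higher member of the list, differed by 0.57 ± 0.10 (adjusted p = 0.00137). Ccn2, a matrix-associated target of this pathway and of Yap, was lower (-1.11 ± 0.19). In the BMP list 4 of 18 were higher and 5 lower, 2 and 2 with the array pair as a block. The ligand Bmp4 was 9.80 and 9.82 against 8.79, 8.79, 9.34 and 9.22 (0.77 ± 0.16, adjusted p = 0.00296). Id2, a target, was lower, but Smad6 was higher, at 6.77 and 6.75 against 5.45, 5.69, 6.31 and 6.30 (0.82 ± 0.18, adjusted p = 0.00562). Id1 (-0.25) and Id3 (0.24) did not pass.

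Of 18 genes of the LIF and Stat3 pathway 4 were higher and 1 lower, where 13.2% and 7.29% of all genes were. With 1 shControl array 1 and 1 passed, and 3 without BirA control replicate 3 or 4. Jak2, a kinase bound to cytokine receptors, was 5.95 and 6.15 on shControl and 5.04, 5.22, 5.30 and 5.34 on BirA control (0.82 ± 0.11, adjusted p = 1.70e-04), and it was the single member whose call held with the array pair as a block. Stat3 (0.04), Socs3 (0.17), Lifr (-0.44) and Il6st (-0.09) did not pass. In the FGF and ERK list 3 of 18 were higher and 2 lower (3 and 3 with 1 shControl array). Fgf15, a secreted factor of early neural and gut tissue, was 7.37 and 7.54 against 8.16, 8.35, 8.13 and 8.12 (-0.74 ± 0.09, adjusted p = 9.61e-05), and Fgf4, the main FGF ligand of ES cells, did not pass (-0.08). Of 18 Wnt genes 0 were higher and 3 lower (2 and 1 with 1 shControl array), of which the receptor Fzd7 (-0.53 ± 0.10) kept its call in every analysis with 1 array left out; its other probe set gave 0.12. The Wnt target Axin2 did not pass (-0.09).

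Enzymes of DNA methylation and imprinted genes also differed, where 13.2% of all genes were higher and 7.29% lower. Of 11 methylation genes 2 were higher and 3 lower, 1 and 3 with the array pair as a block (4 and 4 with 1 shControl array). Beside Dnmt3b, its cofactor Dnmt3l was 10.56 and 10.56 on shControl and 11.57, 11.65, 11.03 and 11.05 on BirA control (-0.77 ± 0.15, adjusted p = 0.00213), and Mbd3, a subunit of the NuRD repressor complex, 9.12 and 9.14 against 9.80, 9.68, 10.01 and 9.86 (-0.70 ± 0.10). The repair enzyme Mbd4 was higher (0.54 ± 0.10). The maintenance enzyme Dnmt1 was higher by 0.20, close to the threshold (adjusted p = 0.0483), and Dnmt3a (-0.25) and Tet1 (-0.56) did not pass. Of 28 imprinted genes, which are transcribed from 1 parental copy, 4 were higher and 8 lower, 2 and 4 with the array pair as a block (7 and 7 with 1 shControl array). Peg3, a paternally expressed zinc finger gene, was 8.01 and 7.90 against 8.81, 8.86, 9.18 and 9.12 (-1.03 ± 0.18, adjusted p = 0.00116), and its other probe sets gave -0.52 and -1.22. Impact, also expressed from the paternal copy, was 9.29 and 9.27 against 10.25, 10.32, 9.87 and 9.91 (-0.81 ± 0.13). Both were low on shControl without overlap, where groups did not overlap in 43.8% of all genes. Igf2 (-0.18), Meg3 (-0.12) and Dlk1 (-0.16) did not pass. Rhox5, an X-linked homeobox gene, was 10.68 and 10.73 against 9.67, 9.57, 10.01 and 10.09 (0.86 ± 0.12, adjusted p = 2.19e-04). Of 7 Y-linked and X inactivation genes 0 passed, and Xist differed by 0.14.

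Adhesion genes changed beyond Cdh2, where 13.2% of all genes were higher and 7.29% lower. Of 22 keratin, claudin and junction genes 3 were higher and 5 lower, 1 and 4 with the array pair as a block (5 and 4 with 1 shControl array). Esrp1, a splicing factor of epithelial cells, was 7.68 and 7.81 on shControl and 9.14, 9.22, 8.96 and 8.94 on BirA control (-1.32 ± 0.13, adjusted p = 1.25e-05). Zeb1, a repressor of epithelial genes, was 7.57 and 7.57 against 6.43, 6.18, 6.59 and 6.68 (1.10 ± 0.13, adjusted p = 8.07e-05), with 0.31 in its other probe set. Cdh1, the gene of E-cadherin (-0.28), Epcam (-0.66) and the claudin Cldn6 (-0.84) were lower, while the keratin Krt7 (0.51, adjusted p = 0.0453) and the desmosomal cadherin Dsg2 (0.51, adjusted p = 0.0483) were higher. In the matrix, 5 of 24 collagen, laminin and integrin genes were higher and 1 was lower (4 and 4 with 1 shControl array). Sparc, a matrix protein of parietal endoderm, was 11.18 and 11.24 against 10.48, 10.46, 10.61 and 10.57 (0.68 ± 0.08), and the basement membrane collagen Col4a1 7.46 and 7.33 against 6.86, 6.87, 6.44 and 6.32 (0.77 ± 0.14). Lamb1, a laminin chain, went the other way (-0.78 ± 0.12), with -1.01 and -1.13 in its other probe sets.

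Lineage genes gave no uniform picture, where 13.2% of all genes were higher and 7.29% lower. Of 21 trophectoderm genes 7 were higher and 1 lower, but only 2 higher with the array pair as a block (3 and 3 with 1 shControl array, and 5 without BirA control replicate 1 or 2). Ets2, a factor of trophoblast stem cells, was 9.33 and 9.27 on shControl and 8.60, 8.82, 8.76 and 8.76 on BirA control (0.56 ± 0.09), while Cdx2, the leading factor of that lineage, did not pass (0.08 ± 0.22, adjusted p = 0.851). Of 21 primitive endoderm genes 5 were higher and 3 lower (7 and 5 with 1 shControl array). Gata6 (0.28 ± 0.11, adjusted p = 0.0804), Gata4 (0.03) and Sox17 (0.13) did not pass, and the endocytic receptor Lrp2 was lower (-1.11 ± 0.12). Of 19 mesoderm genes 1 was higher and 3 lower (2 and 3 with 1 shControl array, and 2 without BirA control replicate 1, 2 or 3). Of 16 neuroectoderm genes 0 were higher and 1 lower (1 and 0 with 1 shControl array), and of 7 genes of the 2-cell stage 0 passed in limma, or 1 without BirA control replicate 3.

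Markers of other cell types were measured because Thy1 and Pdgfrb are also fibroblast genes. Of 17 markers of embryonic fibroblasts 3 were higher (Thy1, Pdgfrb and Loxl1) and 0 lower, where 13.2% of all genes were higher and 7.29% lower. With the array pair as a block 2 were higher (4.55% of all genes) and 0 lower. The mean level of the list was 5.29 and 5.25 on shControl and 4.83 to 5.08 on BirA control. The defining collagens were low in both controls. Col1a1 was 4.17 and 4.44 on shControl and 4.28, 4.10, 4.60 and 4.30 on BirA control (-0.01 ± 0.14), and Col1a2 was 5.17 and 4.95 against 4.83, 4.76, 4.92 and 5.31 (0.11 ± 0.16). Postn, at 3.65 and 3.82 against 3.41, 3.70, 3.48 and 3.54, was near the floor of the array. None of these 3 passed, and neither did Lum (0.14) or Dcn (-0.21). Col1a1 and Col1a2 change sign when some arrays are left out. Of 12 blood cell markers 2 were higher and of 10 endothelial markers 1, none with the array pair as a block (1 and 0 with 1 shControl array in either list). The part of other cells in the levels of Thy1 and Pdgfrb was not tested, and in bulk RNA more cells of a type and more RNA per cell cannot be told apart.

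Growth and stress genes differed in some members, where 13.2% of all genes were higher and 7.29% lower. Of 23 D-type cyclin and G1 genes 5 were higher and 6 lower, 3 and 3 with the array pair as a block (6 and 6 with 1 shControl array). Mycn, a growth-promoting transcription factor of ES cells, was 11.09 and 10.99 on shControl and 12.12, 12.14, 12.09 and 12.12 on BirA control (-1.08 ± 0.07, adjusted p = 2.58e-07), with -1.30 and 0.01 in its other probe sets. Ccnd3 was 10.92 and 10.87 against 9.95 to 10.03 (0.90 ± 0.15), and the inhibitor Cdkn1a, a p53 target, 9.37 and 9.53 against 8.99, 8.64, 8.63 and 8.60 (0.73 ± 0.11). The cyclin Ccnd3 and the inhibitor Cdkn1a were thus both higher. Of 24 replication and mitosis genes 3 were higher and 1 lower, 1 and 0 with the array pair as a block (1 and 1 with 1 shControl array, and 2 without BirA control replicate 4), and of 16 p53 targets 2 were higher and 1 lower. Against BirA control replicates 1 and 2 alone 8 p53 targets passed, and against replicates 3 and 4 alone 5. The mean level of that list was 8.54 and 8.53 on shControl and lay between the BirA pairs, at 8.76 and 8.62 and at 8.38 and 8.39. Of 21 heat shock and oxidative stress genes 6 were lower and 1 higher, 2 and 1 with the array pair as a block (3 and 2 with 1 shControl array). Hsph1, a large heat shock protein, was 10.94 and 10.99 against 11.50, 11.50, 11.81 and 11.88 (-0.71 ± 0.14, adjusted p = 0.00299), with -1.10 in its other probe set. Hmox1, heme oxygenase, was 7.91 and 8.01 against 8.64, 8.75, 8.53 and 8.42 (-0.63 ± 0.09). The chaperone Hsp90b1 of the endoplasmic reticulum was lower as well (-0.73 ± 0.09), in a list of ATF4 and unfolded protein genes with 4 higher and 3 lower of 24, 1 and 2 with the array pair as a block (4 and 4 with 1 shControl array).

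Some lists bear on the control constructs themselves. Their counts stand beside all genes, of which 13.2% were higher and 7.29% lower. A hairpin uses the small RNA pathway, of whose 16 measured genes 3 were higher and 1 lower, none with the array pair as a block (1 and 0 with 1 shControl array). Of 31 genes of the interferon and double-stranded RNA response 4 were higher and 3 lower, 1 and 2 with the array pair as a block (3 and 1 with 1 shControl array, and 4 without BirA control replicate 1 or 2). Stat2, a transducer of interferon signals, was 6.37 and 6.39 on shControl and 5.65, 5.53, 5.60 and 5.51 on BirA control (0.81 ± 0.09, adjusted p = 2.91e-05), with 0.68 in its other probe set. The largest difference of the list went the other way, that of Gbp2 (-1.49 ± 0.39, adjusted p = 0.0133), with -1.67 in its other probe set. Bst2 (-0.53) and Ifitm1 (-0.49) were the other lower members. BirA consumes biotin, and of 11 genes of biotin-dependent carboxylases and biotin handling 2 were higher and 1 lower, none with the array pair as a block (0 and 0 with 1 shControl array, and 1 without BirA control replicate 3). Hlcs, the mammalian biotin ligase, did not pass (-0.23), nor did the biotin transporter Slc5a6 (-0.24). Of 20 Smads and corepressors linked to Tgif 1 was higher and 1 lower (2 and 1 with 1 shControl array, and 4 without BirA control replicate 4). Of 18 Polycomb subunits 4 were higher and 1 lower, none with the array pair as a block (2 and 1 with 1 shControl array, and 3 without BirA control replicate 2).

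The same arms can be set against each other in arrays that the controls do not share, those of Tgif1 KD and those labelled Tgif1 OE, although there the perturbation of Tgif1 differs too. Some control probe sets differed there as well. The mean for 18S ribosomal RNA was 12.46 and 12.36 on Tgif1 KD and 12.99 to 13.41 on the arrays labelled Tgif1 OE. The 5′ minus 3′ signal of the transferrin receptor was -1.04 and -1.01 against -0.51 to -0.84, while those of Gapdh and Actb overlapped. The array set is shared as well. Tgif1 KD, like shControl, has only replicates 1 and 2, while the arrays labelled Tgif1 OE, like BirA control, also have replicates 3 and 4. The difference between these sets correlated at 0.528 between BirA control and Tgif1 OE, so the 2 comparisons are not independent. The parts of RNA quality and of the array set in the shared directions below were not tested. Between these arrays 5453 of 12393 genes (44%) and 8567 of 20380 probe sets (42%) passed. When pairs of arrays were blocked, the count of probe sets fell to 6088. The gene counts that follow are from the first analysis, without that block. Of the 1631 genes higher on shControl, 1234 (75.7%) were also higher on Tgif1 KD than on the arrays labelled Tgif1 OE, where 46% of all genes were higher. Of these, 927 passed there, and 184 of the 1631 passed in the opposite direction. Of the 903 genes lower on shControl, 731 (81%) were lower there too, where 54% of all genes were lower, with 573 past the threshold and 90 past it in the opposite direction. Among genes at least 2-fold apart, 65 of 72 and 66 of 74 kept their direction. Every one of the 8 formative genes and of the 11 hypoxia genes named above had the same sign there.

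Single genes show how far the arms differ beyond their controls. Each comparison with a control shares arrays with the one above, so the values are set side by side only; 3034 genes (24.5%) passed between Tgif1 KD and shControl and 2461 (19.9%) between the arrays labelled Tgif1 OE and BirA control. Cdh2 differed by -3.88 ± 0.16 between Tgif1 KD and the arrays labelled Tgif1 OE, by -0.66 ± 0.19 between Tgif1 KD and shControl and by 1.29 ± 0.13 between the arrays labelled Tgif1 OE and BirA control. For Vegfa the 3 values, in the same order, were 2.07 ± 0.20, -0.01 ± 0.23 and -0.54 ± 0.16, and for Egln1 they were 1.56 ± 0.10, 0.73 ± 0.12 and 0.18 ± 0.08. For Id2 they were -3.99 ± 0.31, -0.67 ± 0.36 and 1.28 ± 0.26. The distance between the arms in these 4 genes was larger than between the controls, a difference that was not tested. Thy1 was the other way round, with 0.37 ± 0.13, -1.33 ± 0.15 and 0.24 ± 0.11, and so was Stra8, with 0.74 ± 0.15, -1.61 ± 0.17 and -0.30 ± 0.12: the distance was smaller than between the controls (not tested), and both genes were lower on Tgif1 KD than on shControl. Pdgfc (1.06 ± 0.06, 2.03 ± 0.07 and -0.85 ± 0.05) and Pla2g7 (2.37 ± 0.13, 2.91 ± 0.15 and -1.17 ± 0.11) turned their sign, lower on shControl than on BirA control and higher on Tgif1 KD than on the arrays labelled Tgif1 OE.

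**Figure D4:**
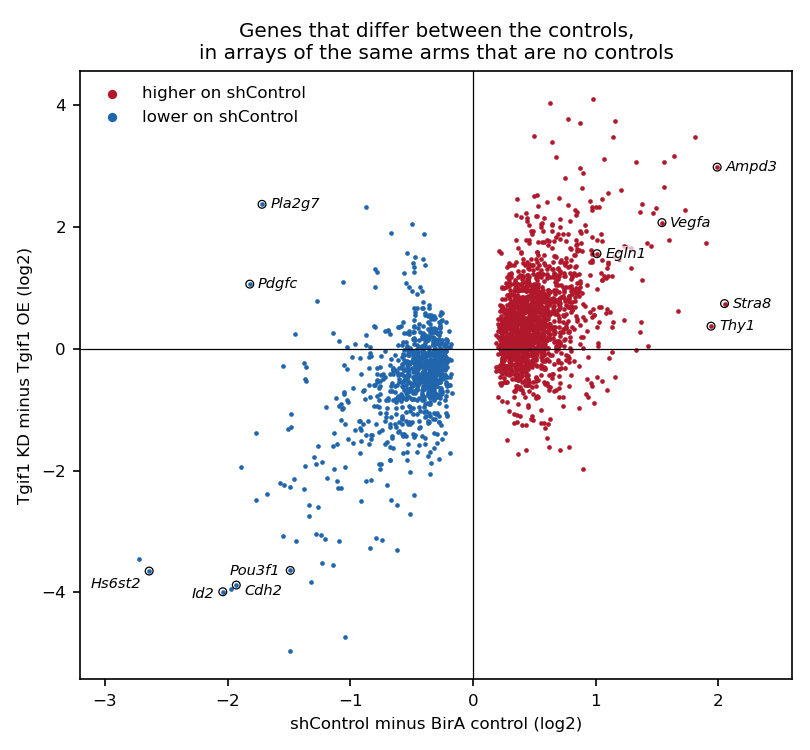
Difference Tgif1 KD minus the arrays labelled Tgif1 OE (log2, vertical axis) against shControl minus BirA control (log2, horizontal axis) for the 1631 genes higher (red) and the 903 genes lower (blue) on shControl; circled genes are named. The axes share no array. Most points lie in the upper right and lower left of the plot, and Pdgfc and Pla2g7 lie in the upper left.

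By chromosome, the median difference of all genes lay between 0.008 on chromosome 18 and 0.105 on chromosome 11, with the 8 genes on Y left out of this range. On chromosome 11, 202 of 1041 genes were higher on shControl and 47 lower, where 13.2% and 7.29% of all genes were, and the median was 0.123 against BirA control replicates 1 and 2 and 0.079 against replicates 3 and 4. Relative to all genes of an array, the median of chromosome 11 was 0.063 and 0.053 on shControl, 0.038 and 0.042 on Tgif1 KD and from -0.047 to 0.007 on the 12 arrays of the overexpression arm. On chromosome 1, 133 of 708 genes were higher and 25 lower, with a median of 0.100. This rested on 1 pair of arrays: the median was 0.163 against BirA control replicates 1 and 2 and 0.035 against replicates 3 and 4, and the chromosome stood at -0.118 and -0.106 on BirA control replicates 1 and 2 against -0.018 to 0.041 on the other 14 arrays. Chromosome 13 stood at -0.058 and -0.048 on shControl and at -0.013 to -0.002 on BirA control. These are medians over genes with no test, and copy number was not measured.

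**Figure D5:**
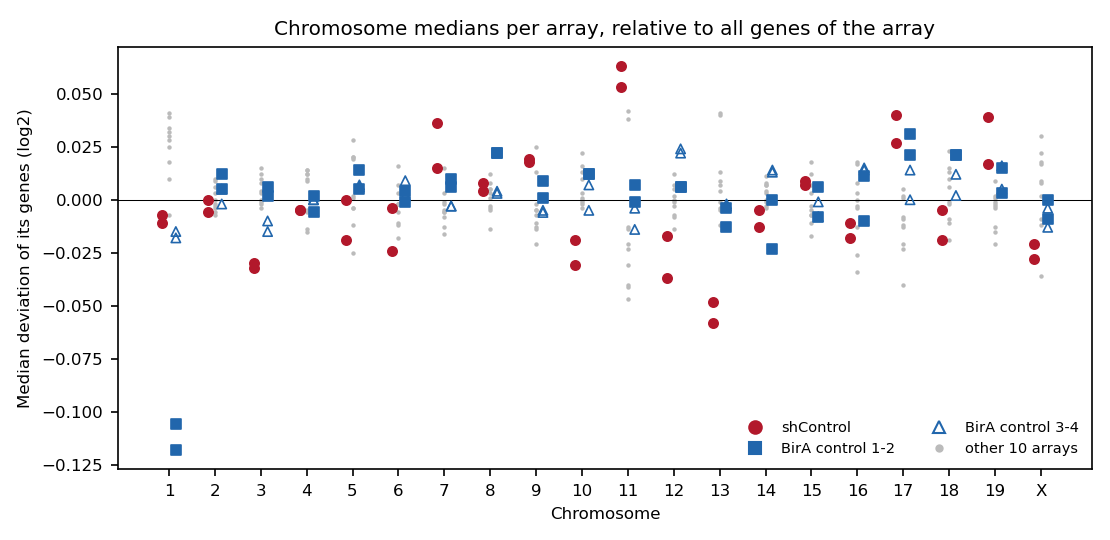
Median over the genes of each chromosome of the log2 intensity relative to the mean over the arrays and to all genes of that array (vertical axis). Red circles are shControl, filled blue squares BirA control replicates 1 and 2, open blue triangles replicates 3 and 4 and grey points the other 10 arrays; Y is left out. Chromosome 1 is lowest on BirA control replicates 1 and 2, and chromosome 11 highest on shControl.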

How the data were processed

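RNA of J1 ES cells was hybridised to Affymetrix Mouse 430A 2.0 arrays. The deposited unit is log2 intensity, 1 value for each probe set and array. RMA is the normalization named by the labels' processing list, which also names limma; their versions are not stated in the sources used here. Among 22690 probe sets, 20380 with a single symbol in GEO's platform annotation were tested. Left out were 64 controls, 691 with several symbols and 1555 with none. A gene number matched for 20351, and 0 symbols were updated. For each of 12393 genes, 4956 of them with more than 1 probe set, the brightest probe set by its mean on 16 arrays was used. There was no intensity filter, and a probe set can bind transcripts of a close relative.

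All 5 groups entered 1 linear model, with a mean each, in limma 3.58.1 (lmFit and eBayes, R 4.3.3). It had 11 residual and 3.72 prior degrees of freedom. The contrast was shControl minus BirA control, with Benjamini-Hochberg adjustment over all 20380 probe sets and a threshold of 0.05. Tgif1 KD minus the arrays labelled Tgif1 OE was fitted likewise. The 5′ minus 3′ control values had an exact permutation test (scipy 1.17.1). The fit was tested on simulated data. The number of arrays limits the precision.

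The 39 gene lists held 789 entries (725 genes, 637 of them measured). The rule for named genes took Tgif1 and Tgif2, the 12 largest differences in each direction among called genes whose groups do not overlap, up to 4 called members of each list, 9 pluripotency and lineage genes, and up to 10 genes called in both comparisons. Other list members give context. Members with a call that 1 array decides were mostly passed over, after their values were seen. The members, lists and tests were chosen with earlier results of these data known. Same-numbered shControl and BirA control arrays deviated from their group means with correlations of -0.015 and -0.016, so single numbers do not pair these arrays; that check cannot see a difference between replicates 1 and 2 and replicates 3 and 4, which entered a separate fit as the array set. Alternatives covered the arrays in the fit, scaling, variance model, dim probe sets, several probe sets per gene, the replicate block, array pairs and each array left out. The array set, and those for the 5′ minus 3′ values, were chosen after seeing the data. Promoter letters came from RefSeq, and 0 columns belonged to no sample.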

Additional observations from a re-analysis of the deposited data

Results flagged for a closer look

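In 8 of 174 results tested, 1 of the 4 BirA control arrays lay far from the other 3, by a gap over Dixon's critical value for 4 samples; chance alone flags about 1 in 20. BirA control replicate 2 stood apart for Sall1 (6.78 against 6.56 to 6.59), Dnmt3b (11.93 against 11.84 to 11.85), Sesn1 (8.42 against 8.38 on each of the others), Col3a1 (4.30 against 4.09 to 4.12) and Dnajb1 (9.97 against 10.12 to 10.15). BirA control replicate 1 stood apart for Cdkn1a (8.99 against 8.60 to 8.64) and Tk1 (9.52 against 9.68 to 9.69). BirA control replicate 4 stood apart for Amn (5.85 against 6.27 to 6.29). In Dnmt3b and Sesn1 the gap is under 0.1 log2. Groups of 2 arrays, such as shControl, were not tested.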

How the results depend on the processing

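The count of 4041 probe sets and 2534 genes lay within 1.5 times of these values with only the 6 control arrays, without Tgif2 OE, after quantile normalization or median centring, with a trended and robust variance, with the 13586 brightest probe sets only and against either BirA pair alone; taking 1 probe set or the mean per gene did so for the count of genes and gives no count of probe sets. The array pair as a random block left 1383 probe sets and 889 genes, and averaged pairs left 0 and 0. Leaving out 1 array gave 1631 to 3931 probe sets and 1028 to 2496 genes, the lowest without shControl replicate 2 (1631) and replicate 1 (2058). With the replicate block the count rose to 6152 probe sets and 3865 genes; deviations of same-numbered shControl and BirA control arrays correlated at -0.015 and -0.016. With the array set (replicates 1 and 2, or 3 and 4) as a term, chosen after seeing the data, 6673 probe sets and 4217 genes passed. For Tgif1 KD minus the arrays labelled Tgif1 OE the count of probe sets was 8567. It rose to 9836 with the replicate block and 10228 with the array set. It fell to 6088 when pairs of arrays were blocked.

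Of 167 named genes 152 passed, 97 of them also with the array pair as a block, and 0 of the 152 changed sign under any alternative. For alternatives that leave arrays out this was fixed beforehand in nearly all of them. Groups did not overlap in 2526 of the 2534 genes that passed, and such a gene cannot change sign there. Genes that did not pass changed sign near 0. Tgif1 (-0.01) became 0.01 after quantile normalization and 0.03 against BirA control replicates 1 and 2. Esrrb became -0.10 with the mean of its probe sets, -0.18 with the replicate block or the array set and -0.03 against BirA control replicates 1 and 2, and Zfp42 became -0.06 with the replicate block or the array set and -0.05 against that BirA pair. Cdx2 became -0.06 with the mean of its probe sets and -0.01 against BirA control replicates 3 and 4. Col1a1 became 0.14 with the mean of its probe sets, 0.11 with the replicate block or the array set and 0.12 against BirA control replicates 1 and 2; leaving out 1 array gave -0.15 to 0.12. Col1a2 became -0.05 against BirA control replicates 3 and 4, and leaving out 1 array gave -0.00 to 0.23 for it and -0.09 to 0.33 for Col3a1. For Tgif1 leaving out 1 array gave -0.03 to 0.02. The causes were not tested. The 5′ minus 3′ differences were -0.09 to -0.17 for Gapdh, -0.09 to -0.17 for Actb and -0.59 to -0.84 for the transferrin receptor over all alternatives. The 2 shControl arrays limit the precision.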

Other observations

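Transport and lipid genes, not described above, passed in part, where 13.2% of all genes were higher and 7.29% lower. Of 17 genes of amino acid and metabolite transport 4 were higher and 4 lower on shControl, 3 and 2 with the array pair as a block. Without shControl replicate 1 or without replicate 2, 5 members passed. Slc1a4, a transporter of neutral amino acids, was 7.53 and 7.37 on shControl and 6.39, 6.29, 6.92 and 6.90 on BirA control (0.83 ± 0.15, adjusted p = 0.00126), with 1.37 and 0.47 in its other probe sets. Slc1a3, a glutamate transporter, went the other way, at 5.86 and 5.85 against 6.51, 6.63, 6.32 and 6.27 (-0.58 ± 0.10, adjusted p = 0.00129), and Slc38a4, an imprinted amino acid transporter, was 10.42 and 10.49 against 9.77, 9.84, 9.81 and 9.90 (0.62 ± 0.08). Of 22 genes of cholesterol and fatty acid synthesis 4 were higher and 2 lower, 1 and 1 with the array pair as a block, and 2 passed without shControl replicate 2. Cyp51, an enzyme of cholesterol synthesis, was 8.36 and 8.31 against 9.01, 8.99, 8.81 and 8.94 (-0.60 ± 0.07, adjusted p = 7.60e-05), and Elovl6, which lengthens fatty acids, was 10.34 and 10.39 against 9.98, 9.98, 9.83 and 9.87 (0.45 ± 0.07).

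Of 26 actomyosin and focal adhesion genes 1 was higher and 3 lower, 0 and 2 with the array pair as a block, and 2 passed without shControl replicate 1, shControl replicate 2 or BirA control replicate 2. Ccn1, a matrix protein and target of Yap, was 6.29 and 6.21 on shControl and 6.74, 6.97, 6.87 and 6.89 on BirA control (-0.62 ± 0.12, adjusted p = 0.00202), with -0.31 in its other probe set. Between Tgif1 KD and the arrays labelled Tgif1 OE Ccn1 differed by -2.56 ± 0.12. The counts of this list and the next stand beside all genes, of which 13.2% were higher and 7.29% lower on shControl. Of 18 genes of the Myc network 2 were higher and 3 lower, 1 and 1 with the array pair as a block, and 1 passed without shControl replicate 1 or replicate 2 and 2 without BirA control replicate 3.

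Genes measured by several probe sets give a second reading of the same RNA. Of the 2534 genes past the threshold 1143 had a second probe set. In 983 of them it had the same direction, in 485 it also passed in that direction, and in 7 it passed in the opposite one.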
